A study of Mus musculus with 3 samples.

Results

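Interferon-responding NK cells were the natural killer (NK) cells with the largest share of unique molecular identifiers (UMIs, 1 per captured transcript) from 5 interferon-induced genes, *Ifit1*, *Ifit2*, *Ifit3*, *Rsad2* and *Cxcl10*. The top 10% of NK cells in each library were taken, which gave 780 members among 7777 NK cells and 34781 deposited cells. NK cells held at least 1 UMI of *Ncr1*, which encodes the NK receptor NKp46, at most 1 of *Cd3e* and of *Cd8b1*, and at most 3 of the proliferation genes *Mki67* and *Top2a* together, among barcodes with 1000 to 6000 detected genes whose mitochondrial share was below 7.5%. Tumor-infiltrating lymphocytes came from subcutaneous MC38-Ova tumors, a colon adenocarcinoma line given as 250000 cells to wild-type C57BL/6 Kaede mice, and every library was labelled isotype control treated; the number of mice per library was not given in the sources used here, and their age only as a range for the whole project. Kaede is a protein that violet light switches from green to red, so that after photoconversion on day 13 and harvest on day 15 Kaede-green (KG+) cells had entered the tumor within the last 48 h, and Kaede-red (KR+) cells had been in it at photoconversion. Live CD45+ TER119- Kaede+ cells were sorted without CD11b+ NK1.1- myeloid cells into 2 KG+ libraries (KG+ 1 and KG+ 2, labelled as biological replicates) and 1 KR+ library, each read by 3′ single-cell RNA sequencing.

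Interferons signal through paired receptors, JAK kinases and STAT proteins. Type I interferon gives rise to a complex with IRF9 that binds the interferon-stimulated response element, and the genes it switches on detect and block viruses, raise antigen presentation and restrain the signal again. Type I interferons come from many cells, whereas NK cells and T cells are the main makers of type II interferon, IFN-γ, and NK cells answer type I interferon with more granzyme B and cytotoxicity.

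The members numbered 257 of 2562 NK cells in KG+ 1, 252 of 2512 in KG+ 2 and 271 of 2703 in KR+. They were compared with the 50% of NK cells with the lowest scores, here called reference cells, 1281, 1256 and 1352 cells. No member barcode occurred in more than 1 library. Members held a median of 6206, 7890.5 and 12704 UMIs, against 5990, 8194 and 15671.5 in reference cells, so KR+ cells were the most deeply sequenced and KR+ members were shallower than their reference cells. Summed over cells, members gave 1940021, 2220848 and 4003058 UMIs and reference cells 9404520, 12733640 and 23469880. NK genes outside the rule were compared in members and reference cells. *Klre1*, an NK lectin receptor, stood at 621, 600.2 and 572 CPM (UMIs of a gene per 1000000 UMIs of the summed cells) in members and 575, 528 and 499 in reference cells of KG+ 1, KG+ 2 and KR+, and *Eomes*, a transcription factor of conventional NK cells, at 215, 181 and 117 against 229, 192 and 92.5. *Klrb1c*, which encodes NK1.1, stood at 267, 222 and 200.1 CPM against 403, 287 and 191, lower in members of both KG+ libraries (log2 difference -0.18, edgeR adjusted p = 0.26), and at 11, 12.6 and 5.08 CPM in CD8 T cells. *Fcgr3*, which encodes the Fc receptor CD16, was lower in members of all 3 libraries, at 35.6, 21.6 and 24.2 against 42.0, 32.1 and 37.3 CPM, without passing the test (-0.38, adjusted p = 0.077).

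The score had no gap at the threshold. Among NK cells, 43.6%, 27.9% and 41.2% held no UMI of the 5 genes in KG+ 1, KG+ 2 and KR+. The lowest member had 0.261%, 0.295% and 0.127% of its UMIs from these genes and the highest cell left out 0.260%, 0.294% and 0.125%, so the members were the upper end of a range and not a separate group of cells. The 25 members nearest the threshold held 1688, 1609 and 565 CPM of *Isg15*, an interferon-induced ubiquitin-like protein, and the 25 cells just outside it 1398, 1515 and 915 CPM. *Gzmb*, which encodes granzyme B, stood at 5910, 4751 and 3121 CPM in the 25 cells inside and 8418, 4796 and 6113 in the 25 outside, with little difference in KG+ 2. These values rest on few cells and have no interval. Over wider bins *Gzmb* went the other way in each library. It stood at 6471, 6477 and 5062 CPM from 5% to 10% from the top, against 5945.5, 5765 and 4646 from 10% to 20%.

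**Figure D1:**
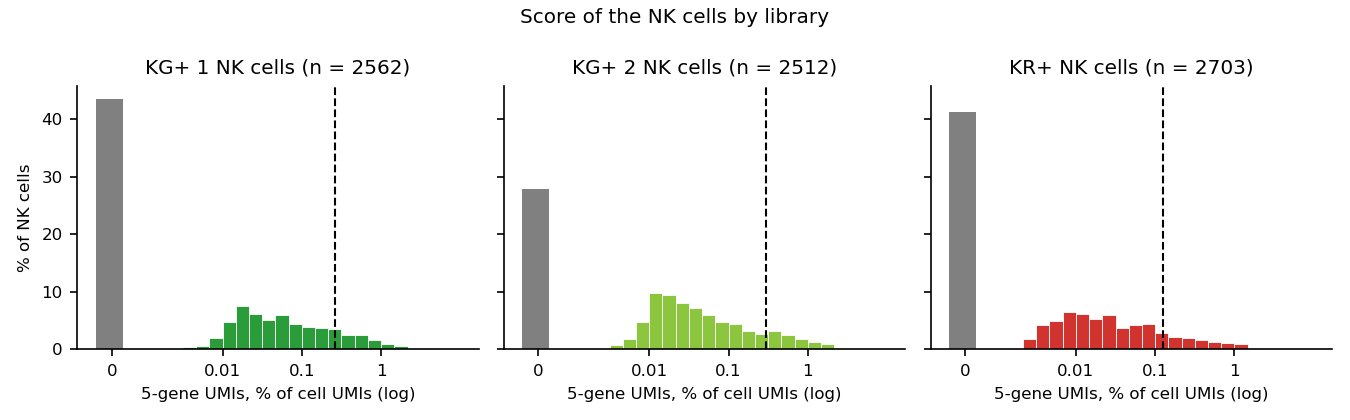
Share of each NK cell's UMIs that came from the 5 genes (x, percent, log axis, with cells at 0 as the grey bar) against the percent of NK cells (y), for 2562, 2512 and 2703 NK cells. The dashed line is the lowest member, at 0.261%, 0.295% and 0.127%; cells lie on both sides of it without a gap.

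*Cxcl10*, a chemokine that draws CXCR3+ lymphocytes, made up most of the score. It accounted for 68.2%, 74.4% and 74.8% of the members' UMIs from the 5 genes, at 4594, 5556 and 3202 CPM in KG+ 1, KG+ 2 and KR+, and over 50% of the score in 574 of 780 members. *Ifit1*, *Ifit2* and *Ifit3* encode proteins that bind foreign RNA or stop its translation. *Ifit1* stood at 704, 530 and 348, *Ifit2* at 253, 264 and 142 and *Ifit3* at 611, 516 and 298 CPM in members. *Rsad2* encodes viperin, an antiviral enzyme, and stood at 579, 600.2 and 288 CPM. All 5 genes were detected in 311 members, no *Cxcl10* in 37, and no gene but *Cxcl10* in 64. These levels chose the members and are given as a description.

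The start of 4 of these 5 genes holds a short form of the letters that the interferon complex is known to bind. RefSeq promoters of build GRCm38.p6 were searched, in the 250 bases before each start and on both strands, for GAAANNGAAA, from the interferon-stimulated response element, and 3.46% of 27025 genes with an entry held it. The stretches below were chosen because their genes define the members or were among the strongest changes outside the rule; capitals mark the match, or overlapping matches, and the reverse strand reads TTTCNNTTTC.
Ifit1, chr19:34640760-34640838, plus strand: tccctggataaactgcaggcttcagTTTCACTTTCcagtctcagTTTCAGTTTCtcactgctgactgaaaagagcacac
Ifit3, chr19:34583348-34583441, plus strand: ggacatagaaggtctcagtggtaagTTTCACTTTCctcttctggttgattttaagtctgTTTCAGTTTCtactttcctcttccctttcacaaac
Rsad2, chr12:26456538-26456597, minus strand: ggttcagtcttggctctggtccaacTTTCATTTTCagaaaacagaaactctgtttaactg
Cxcl10, chr5:92349068-92349127, minus strand: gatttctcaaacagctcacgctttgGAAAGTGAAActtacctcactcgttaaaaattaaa
Slfn5, chr11:82951922-82951981, plus strand: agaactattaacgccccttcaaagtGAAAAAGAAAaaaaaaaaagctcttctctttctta
Isg15, chr4:156200850-156200921, minus strand: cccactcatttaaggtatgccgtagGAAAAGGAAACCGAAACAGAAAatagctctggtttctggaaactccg

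The matches of *Ifit1* began 104 and 85 bases before the start, those of *Ifit3* 156 and 122, that of *Rsad2* 120, that of *Cxcl10* 213 and that of *Slfn5* 155. The *Slfn5* stretch lies before the RefSeq start, but inside the gene as placed by GENCODE M21, from position 82951349. *Isg15* had 3 overlapping matches from 78 bases before its start. *Ifit2* and *Cmpk2* held none of these letters in this window. Among genes tested below, 3.34% of 8113 with an entry held the letters, as did 10.1% of 802 genes higher in members and 0.993% of 302 genes lower in members. A match is a description of the sequence.

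Outside the 5 genes, members were set against reference cells with edgeR's quasi-likelihood test on UMIs summed per library, 6 sums with the library as a block. Of 10326 genes tested, 1028 (9.96%) were higher in members and 379 (3.67%) lower at a Benjamini-Hochberg adjusted p below 0.05, and 376 and 33 of them by more than 2-fold. The median log2 difference of all genes tested was -0.01. The shares of 9.96% and 3.67% are the background for the counts in each gene list below. The cells were chosen by a score that other interferon-induced genes follow, so the counts describe what goes with the score within NK cells. The count of genes lower in members varied with the fit, from 2 without the library block (248 higher) and 139 with DESeq2 to 979 without *Cxcl10* in the score and 1000 without the filter on low counts, and leaving out KG+ 1, KG+ 2 or KR+ gave 197, 174 and 686. Of 100 called genes followed through the 13 other fits that kept the block, 64 passed in each, *Cxcl9* passed in the 10 that could test it, and 20 lost the call in 3 or more, among them *Itga1* in 8, *Ifnar1* in 5, *Ccl1*, *Cd28*, *H2-Ab1*, *Klra5* and *Stmn1* in 4 and *Dnaja1*, *Fcer1g*, *Gapdh*, *Gzmc* and *Irf8* in 3.

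Among genes with a mean of at least 20 CPM over the 6 sums, the largest rises were those of interferon-induced genes. *Ifi207*, of the family of *Ifi204*, lay just under that limit, at a mean of 19.1 CPM, and rose by 4.75. *Slfn5*, a Schlafen family gene, stood at 377, 354 and 153 CPM in members of KG+ 1, KG+ 2 and KR+ and at 11.7, 21.8 and 9.59 in reference cells. Members were higher in each library, by a log2 difference of 4.41 ± 0.16 (SE; edgeR adjusted p = 2.8e-09). *Iigp1*, an immunity-related GTPase, followed at 145, 129 and 99.4 against 7.66, 11 and 3.83 CPM, a log2 difference of 4.25 ± 0.17 (adjusted p = 4.5e-09). *Isg15* was among the most abundant of them, at 2236, 2132 and 1358 CPM against 170, 188 and 114. Its log2 difference was 3.71 ± 0.06 (adjusted p = 1.0e-11), and the lowest member sum, in KR+, lay above the highest reference sum, in KG+ 2. Single cells overlapped, as 46.6%, 56.4% and 58.0% of reference cells and 98.4%, 98.4% and 94.1% of members held an *Isg15* UMI. Next came *Cmpk2*, a nucleotide kinase beside *Rsad2* on chromosome 12, at 4.25, *Oasl2*, an oligoadenylate synthetase-like gene, at 3.67, and *Usp18*, which removes ISG15 and dampens interferon signaling, at 3.66. The DNA-sensing family genes *Ifi204* and *Ifi208* rose by 3.52 and 3.5, *Slfn9* by 3.5 and *Parp12* by 3.35.

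**Figure D2:**
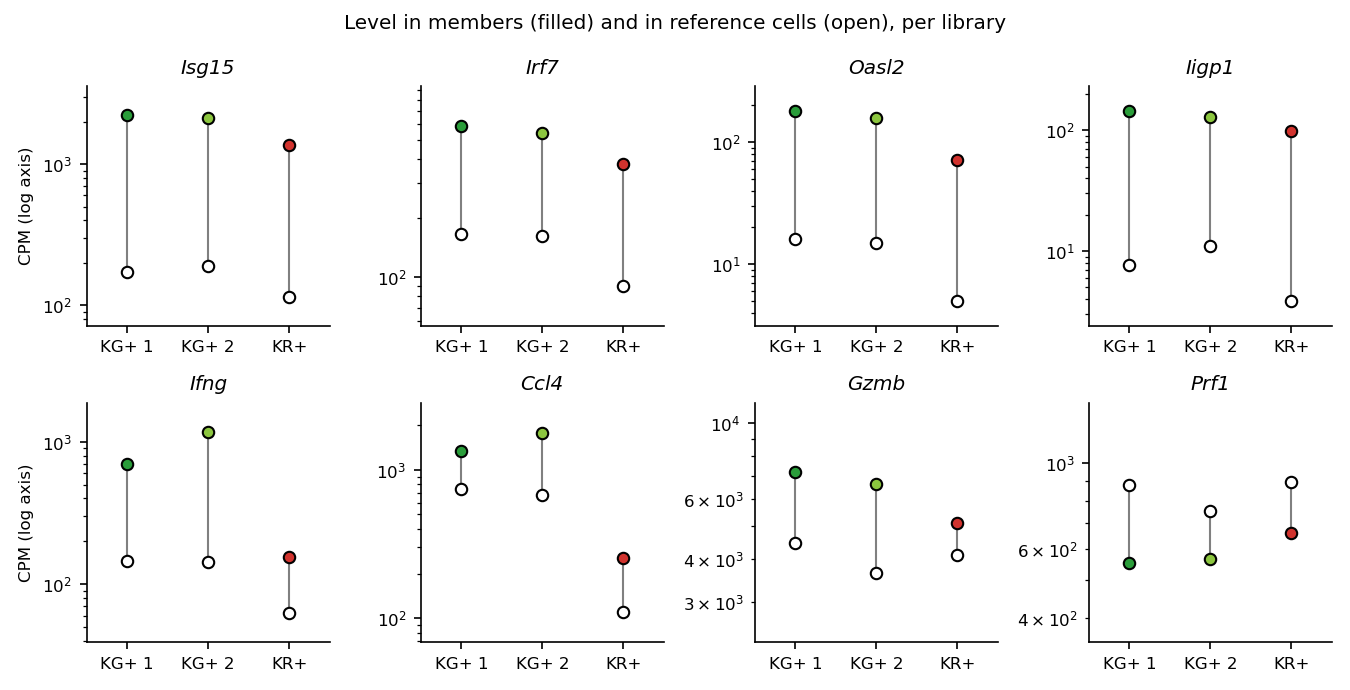
Level of 8 genes (y, CPM, log axis) in each library (x), as 1 sum over the members (filled) and 1 over reference cells (open). *Isg15*, *Irf7*, *Oasl2*, *Iigp1*, *Ifng*, *Ccl4* and *Gzmb* are higher and *Prf1* lower in members of all 3 libraries.

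The machinery of the response moved with its targets. Of 18 genes of interferon signaling, 15 rose and none fell, with a median log2 difference of 0.98. *Stat2*, of the IRF9 complex, stood at 78.4, 77.9 and 46.7 CPM against 13.8, 17.9 and 9.5 and rose by 2.41 ± 0.12 (adjusted p = 2.9e-08). *Irf7*, which amplifies type I interferon, rose by 1.99, from 166, 161 and 90.3 to 588, 543 and 377 CPM. *Irf9* rose by 0.89 and *Stat3* by 0.46. The kinase *Jak1* was at 0.11 (adjusted p = 0.29). Receptors differed little, as 1 of 5 rose, *Ifnar1* by 0.37 (adjusted p = 0.013; 0.078 with DESeq2 and 0.19 under a stricter NK gate), while *Ifngr1* was at 0.06 (adjusted p = 0.50) and *Ifnar2* at 0.23 (adjusted p = 0.14).

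Sensors and effectors rose nearly throughout. Among nucleic acid sensors, 19 of 21 rose and none fell (median 2.60), with *Ifi203* at 843, 950 and 401 CPM against 132, 166 and 83.3, *Zbp1*, a sensor of Z-form nucleic acid, up by 2.27, and the RNA sensors *Ifih1* and *Ddx58* by 3.34 and 1.93. Of 41 antiviral effectors, 38 rose and none fell (median 2.02). *Bst2*, which encodes tetherin, rose by 1.49 and the exonuclease *Isg20* by 2.20. All 17 guanylate-binding proteins and immunity-related GTPases tested rose (median 2.49), *Ifi47* by 2.25, *Gbp7* by 1.75, *Igtp* by 2.55 and *Irgm1* by 2.75, and so did all 12 genes of the Schlafen, Ms4a4 and Ly6 list (median 1.54), among them *Ms4a4b* at 3542, 3097 and 1984 CPM against 1501, 1274 and 959. These shares stand far above the 9.96% of all genes tested that were higher. The lists were drawn up with earlier results of these data known.

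Feedback genes were mixed. Of 13, 9 rose and 1 fell (median 0.54). The signaling inhibitor *Socs1* rose by 1.56, from 149, 99.5 and 99.6 to 421, 302 and 235 CPM, *Nfkbia* by 0.54 and *Tnfaip3* by 0.32, while *Trim27*, a ubiquitin ligase gene, fell by 0.57. Without *Cxcl10* in the score *Nfkbia* was at 0.09 (adjusted p = 0.37), and under a stricter NK gate *Trim27* was at -0.33 (adjusted p = 0.28).

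Antigen presentation by MHC class I rose in small steps from a high level. Of 20 genes, 17 rose and none fell (median 0.56). *H2-K1* stood at 4793, 4421 and 3689 CPM against 3964, 3596 and 2915 (0.42 ± 0.03, adjusted p = 4.0e-06), *B2m* rose by 0.39 and *H2-D1* by 0.37. The nonclassical *H2-T22* rose by 1.34, the peptide transporter *Tap1* by 1.14 and the immunoproteasome subunit *Psmb9* by 0.83. *Cd274*, which encodes PD-L1, rose by 1.22, from 68.3, 71.7 and 52.8 to 149, 156 and 111 CPM.

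**Figure D3:**
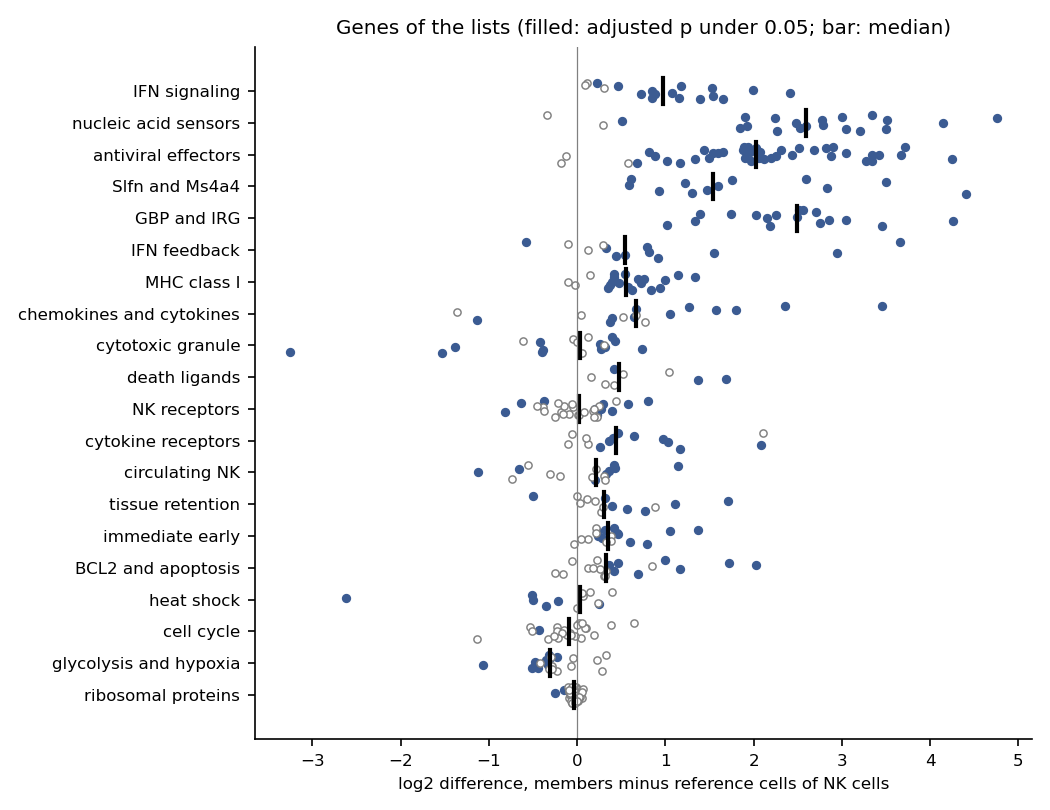
Log2 difference between members and reference cells (x) for each gene of 20 lists (y); filled points passed the test, open points did not, and the bar is the list's median. Medians are 2.60 for nucleic acid sensors, 2.49 for guanylate-binding proteins and GTPases, 0.03 for cytotoxic granule genes and -0.31 for glycolysis and hypoxia.

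Granule genes did not move one way. Of 18, 6 rose, 6 fell and 6 did not pass the test (median 0.03), with 3 falls with DESeq2 or under a stricter NK gate and 3 rises without KG+ 2. *Gzmb* stood at 7175, 6634 and 5104 CPM in members and 4455, 3654 and 4101 in reference cells. It rose by 0.73 ± 0.09 (adjusted p = 8.2e-05), or 1.66-fold, and was higher in members of 3 of 3 libraries. Cells with a *Gzmb* UMI, after each cell was thinned to 2000 UMIs, made up 94.6%, 93.7% and 88.2% of members and 84.3%, 84.9% and 82.2% of reference cells. A share in cells that should lack the transcript is given below for *Ifng* only. The thinned shares of *Gzmb*, *Gzme* and *Cd74* are therefore not read as expressing cells. *Gzma* rose by 0.40, at 11233, 9302 and 3954 against 9127, 6994 and 3556 CPM. *Prf1*, the pore-forming perforin, fell by 0.39 ± 0.06 (adjusted p = 0.0011), from 877, 751 and 891 to 555, 566 and 660 CPM. Higher granzyme B thus stood beside lower perforin in each library.

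The neighboring granzymes C, D, E and G on chromosome 14, which are similar enough in sequence that reads may be split between them, passed the test as lower in members. *Gzmc* stood at 2711, 2451 and 13699 CPM against 3464, 4730 and 16944 and fell by 0.42 (adjusted p = 0.0049), a call lost with DESeq2 (adjusted p = 0.59), for the top 5% (0.21) and under a stricter NK gate (log2 difference -0.02, adjusted p = 0.93). *Gzme* stood at 29.4, 27.5 and 362 against 57.1, 122 and 924 CPM and fell by 1.38 (adjusted p = 2.8e-05). *Gzmd* fell by 1.53 (adjusted p = 0.010), but in KG+ 1 the members were not lower, at 91.2, 46.8 and 429 CPM against 88.5, 267 and 1934. *Gzmg*, at 0, 0.901 and 33.2 against 0.638, 37.6 and 297, had a log2 difference of -3.25, the largest fall of the named genes (adjusted p = 1.4e-07), but of the 479 UMIs in KG+ 2 reference cells 1 cell held 378. Its difference was -1.33 for the top 20%, -1.40 under a stricter NK gate, -1.64 within 10 strata of depth and -0.79 (adjusted p = 0.12) without *Cxcl10* in the score. In members a few cells carried most of the 57, 61 and 1448 *Gzme* UMIs, since 10 cells held 100%, 98.4% and 90.7% of them. In reference cells, with 537, 1549 and 21685 UMIs, the 10 highest held 89.4%, 65.1% and 23.9%. These shares are not compared, since the groups differ in cells and UMIs. In KR+, where the gene was most common, 7.75% of members and 18.3% of reference cells held a *Gzme* UMI after thinning. Under a stricter NK gate *Gzme* no longer fell (log2 difference 0.09, adjusted p = 0.92).

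Members held more transcripts of secreted signals. Of 16 chemokine and cytokine genes tested, 10 rose and 1 fell (median 0.67). *Ifng*, the only interferon gene of 8 listed that passed the filter on low counts, stood at 697, 1182 and 155 CPM in members and 144, 142 and 62.2 in reference cells. It rose by 2.36 ± 0.24 (adjusted p = 2.6e-05), and the difference in each library was 2.27, 3.06 and 1.32. Few cells carried much of it, since the 10 highest of 257, 252 and 271 members held 45.2%, 46.9% and 39.1% of the members' *Ifng* UMIs. The 10 highest of 1281, 1256 and 1352 reference cells held 13.7%, 20.1% and 23.6%. These shares are not compared, since the groups differ in size. More members held the transcript at all. After thinning to 2000 UMIs, 45.9%, 46.0% and 20.3% of members and 21.2%, 21.4% and 11.4% of reference cells had an *Ifng* UMI (65.8%, 73.4% and 52.0% against 40.0%, 48.6% and 34.9% before thinning). The exact 95% binomial intervals of the thinned shares, which cover counting error only, did not overlap in any library (15.7% to 25.6% for KR+ members and 9.75% to 13.2% for their reference cells). In B cells, which should lack the transcript, the thinned share was 4.00% of 200 cells in KG+ 1 and 2.00% of 100 in KG+ 2, at a median of 4013.5 and 4840.0 UMIs per cell. No B cell share is given for KR+, so its thinned shares stand without a background value.

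Chemokines rose alongside. *Ccl4*, an inflammatory chemokine, stood at 1334, 1772 and 254 CPM against 738, 671 and 110 and rose by 1.27 ± 0.09 (adjusted p = 7.8e-07), with 44.2%, 56.7% and 70.2% of the members' UMIs in 10 cells. *Ccl3* rose by 1.05, *Xcl1*, which draws XCR1+ dendritic cells, by 0.66 from 1515, 2149 and 1901 to 2484, 3092 and 2536 CPM, and *Ccl5* by 0.40. *Ccl1* fell by 1.13 (adjusted p = 0.045), a call lost with DESeq2 (adjusted p = 0.42), against all other NK cells (0.094), without other lineages and the highest UMIs (0.11) and without KG+ 2, where the log2 difference was -0.50 (0.078). *Cxcl9*, another CXCR3 ligand, rose by 3.46, but at 14.4, 57.2 and 0.250 CPM it was nearly absent from KR+ members. When cells with transcripts of other lineages and the 5% of cells with the most UMIs were left out together, *Cxcl9* was down to 0, 3 and 1 UMIs in members and 5, 16 and 0 in reference cells and could not be tested.

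Receptors of NK cells mostly did not pass the test. Of 30, 7 rose and 3 fell (median 0.02), with 3 rises left without KG+ 1 and 1 without KG+ 2, and 7 falls without KR+. In the main fit both shares stood above those of all genes tested, of which 9.96% rose and 3.67% fell. *Klrk1*, which encodes the activating receptor NKG2D, stood at 943, 876 and 705 CPM against 580, 500.3 and 477 and rose by 0.80 ± 0.07 (adjusted p = 5.1e-06). The adaptor *Fcer1g* rose by 0.22, whereas *Tyrobp* and *Klrd1* were at -0.05 and 0.02, and the lectin-like *Klra5* fell by 0.82. Cytokine receptors rose in 9 of 14 cases (median 0.44; 5 of 13 without other lineages and the highest UMIs), most of all *Il10ra*, by 2.08, from 25.4, 21.0 and 9.16 to 89.7, 67.5 and 48.0 CPM. *Il12rb2* rose by 0.65 and *Il2rg* by 0.41, and *Il2rb* was at 0.13 (adjusted p = 0.12). Among death ligands and receptors 3 of 8 rose, *Fas* by 1.69, *Tnfsf10*, which encodes TRAIL, by 1.37 and *Fasl* by 0.41.

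*Cd69*, an early activation marker that holds lymphocytes in tissue, rose by 1.71 ± 0.08 (adjusted p = 1.4e-08), from 185, 154 and 119 to 588, 486 and 332 CPM. Of the 14 tissue retention genes 6 rose and 1 fell, the integrin *Itga1*, by 0.50 (adjusted p = 0.022), a call that DESeq2 did not make (adjusted p = 0.083). Of 16 genes of circulating NK cells, 6 rose and 2 fell, against 3 and 1 without KG+ 2 and 6 and 4 without KR+; 3 rose within 10 strata of depth or under the stricter gate. *Zeb2*, a factor of NK maturation, rose by 1.15 and *Cxcr4* by 0.41 (0.25, adjusted p = 0.062, within 10 strata of depth), and *Cma1*, a mast cell protease that NK cells can express, fell by 1.12. Among immediate early genes 12 of 20 rose (7 without KG+ 2) and none fell (median 0.35), *Junb* by 0.37 and *Myc* by 1.37. Of 19 apoptosis genes, 8 rose and none fell (median 0.33), *Casp4*, an inflammatory caspase, by 2.03 and *Mcl1* by 0.46.

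Metabolic and housekeeping genes mostly did not rise. Of 21 glycolysis and hypoxia genes none rose and 10 fell (median -0.31), *Ldha* by 0.36 (adjusted p = 0.0011), from 567, 589.9 and 889.5 to 402, 406 and 689 CPM, *Gapdh* by 0.23 and *Bnip3* by 1.07. A fall share of 10 in 21 stands beside 3.67% of all genes tested. Within 10 strata of depth 6 fell, and without KR+ 9 fell and 2 rose. Under a stricter NK gate 3 of 20 fell, and *Ldha* was at -0.19 (edgeR adjusted p = 0.078). Heat shock genes fell in 5 of 12 cases (1 within 10 strata of depth and 0 under the stricter gate) and rose in 1, *Dnaja1*. Without KG+ 1, 2 fell and 2 rose. Of 24 cell cycle genes 1 fell, *Stmn1*, by 0.44 (6 of 23 fell without KR+, 6 without *Cxcl10* in the score and 0 without KG+ 2), and none rose. Under the stricter gate 1 of 20 rose and 0 fell. The main gate had left out only cells with more than 3 UMIs of *Mki67* and *Top2a* together. Ribosomal proteins did not rise, and 2 of 40 fell (17 without *Cxcl10* in the score, 8 without KR+ and 20 without the filter on low counts). For the top 5%, 2 ribosomal protein genes rose and 1 fell. In the main fit the fall shares of the cell cycle and ribosomal lists lay near the 3.67% of all genes tested. Outside the lists, the named falls were *Mt1*, a metallothionein, by 1.45, *Gcsh*, of the glycine cleavage system, by 1.19, and by 0.81 to 0.95 *Ccdc86*, the DNA repair enzyme *Apex1*, the MYC network gene *Mxd4*, the spermidine synthase *Srm* and *Ppan*, a ribosome assembly factor.

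**Figure D4:**
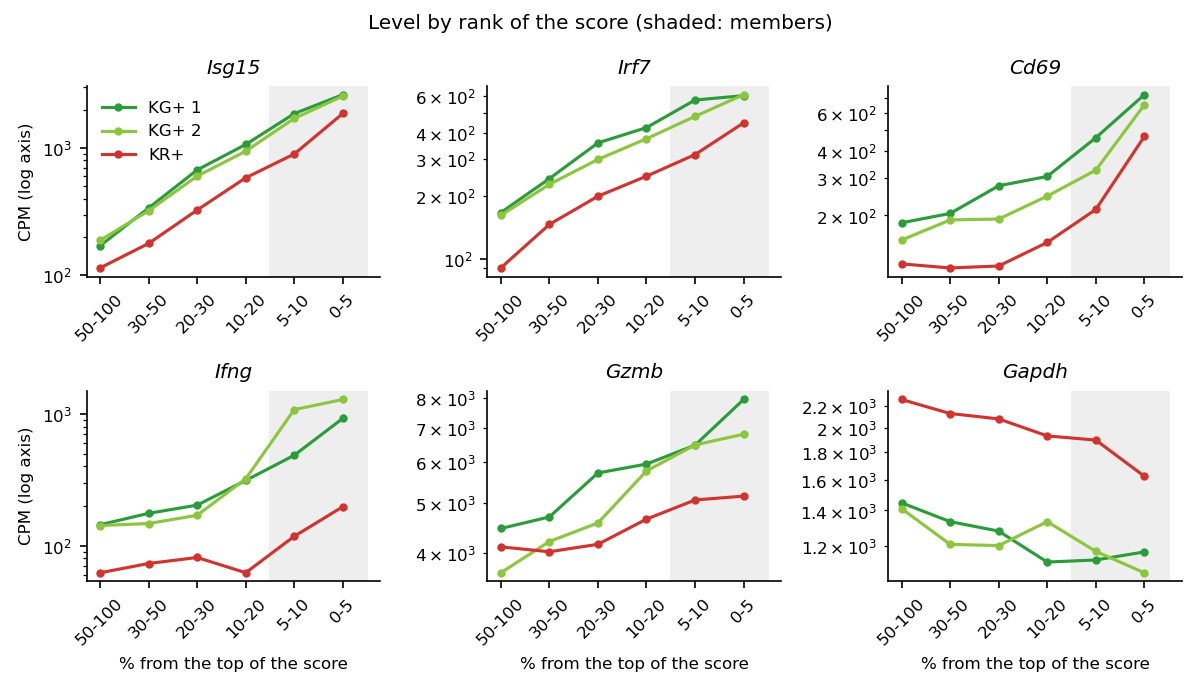
Level of 6 genes (y, CPM, log axis) in NK cells binned by rank of the score (x, percent from the top, highest scores at right, members shaded), 1 line per library. *Isg15* climbs over every bin, *Ifng* over every bin in KG+ 1 and mainly in the top bins in KR+, and *Gapdh* is lower in the members' bins than in reference cells; the score was ranked within each library.

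Levels followed the rank of the score also outside the members. *Isg15* in KG+ 1 went from 170 CPM in reference cells through 338 (30% to 50% from the top), 673 (20% to 30%), 1068 (10% to 20%) and 1869 (5% to 10%) to 2634 CPM in the top 5%, and KG+ 2 and KR+ kept the same order. *Ifng* differed between libraries. In KG+ 1 it climbed over every bin, at 144, 176, 203, 313, 486 and 926 CPM. In KR+ it was 62.2, 73.1, 81.2 and 62.2 CPM in the lower 4 bins and 118 and 198 in the members' bins, and in KG+ 2 it went from 321 to 1079 and 1288 CPM over the top 3. *Gzmb* went in KG+ 2 from 3654 in the lowest bin to 6796 CPM in the highest and in KR+ from 4104 to 5150. These values are a description of ranked cells.

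Members did not all look alike. Those with over 50% of their score from *Cxcl10* (169, 189 and 216 cells) and the other members (88, 63 and 55) were compared by value only, since this split was made after the values had been seen. *Slfn5* was lower in the former in each library, at 307, 287 and 126 against 547, 626 and 299.8 CPM, and so was *Isg15*, at 2059, 2022 and 1271 against 2665, 2584 and 1819. *Ifng* was at 554, 1198 and 154 CPM in the former and 1044, 1117 and 163 in the latter, with no order shared by the libraries. In KG+ 1 and KG+ 2 the former held nearly all *Cxcl9*, 20.4 and 70.7 CPM against 0 and 2.28, and more *Cd74*, the invariant chain of MHC class II, at 360 and 522 against 69.0 and 146.

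Transcripts of other cell types were checked in members. Defining myeloid genes were at or near 0, as *C1qa* was at 0, 1.80 and 0 CPM and *Lyz2* at 0.515, 4.95 and 0. The myeloid list of 12 genes summed to 540, 788 and 145 CPM in members and 210, 401 and 119 in reference cells, and *Cd74* was its most abundant gene. *Cd74* (275, 448 and 63.7 against 95.4, 182 and 47.7 CPM) rose by 1.23 and the class II chain *H2-Aa* by 1.40, but 10 cells held 94.6%, 87.9% and 80.4% of the members' *Cd74* UMIs. The thinned share of members with *Cd74* was 6.23%, 14.3% and 5.54%, against 4.14%, 12.2% and 4.44% of reference cells. Cells with 2 or more UMIs of other lineages made up 11.3%, 44.0% and 18.5% of members and 8.51%, 42.4% and 23.7% of reference cells, so KG+ 2 stood apart from the other libraries in both groups. The genes counted were those of the T cell, B cell, myeloid, plasmacytoid dendritic, neutrophil, mast cell and tumor or stroma lists. *Cd74*, *Apoe*, *Itgax*, *Cd3g*, *Trac*, *Trbc1*, *Trbc2* and *Cd28* were left out of that count. When cells with 2 or more of these UMIs and the 5% of cells with the most UMIs were left out, *Cd74* was at 0.04 (adjusted p = 0.92), *H2-Aa* at 0.64 (adjusted p = 0.34) and *Il7r*, described below, at 0.46 (adjusted p = 0.40). In that fit *Ifng* rose by 2.24, *Gzmb* by 0.85 and *Isg15* by 3.70. *H2-Aa* and *H2-Ab1* were themselves counted by the filter, so their values in that fit were partly set by it and do not test their rise. Of 9 T cell genes 4 rose and none fell (median 0.41), and 0 rose without KG+ 1 or under the stricter gate. *Cd4* rose by 1.64 (edgeR adjusted p = 0.015), at 5.15, 3.60 and 2.00 against 1.81, 1.57 and 0.511 CPM. That call was lost in 4 of the 11 other fits with the block that could test it. *Cd3d* rose by 0.52, at 54.1, 62.6 and 28.7 against 32.2, 53.0 and 23.5 CPM, and *Cd28* by 0.41. *Trbc1*, the most abundant of the 9, was at 0.03 (edgeR adjusted p = 0.79). The T cell list summed to 1188, 1174 and 890 CPM in members and 1132, 1194 and 949 in reference cells. B cell genes summed to 0.515, 8.11 and 0.250 CPM in members, neutrophil genes to 0, 0.450 and 0, and mast cell genes summed to 0, 0.450 and 0.250. Genes of plasmacytoid dendritic cells summed to 5.67, 13.1 and 1.75 CPM, and tumor or stroma genes to 2.06, 4.05 and 4.25. Of 3 innate lymphoid cell genes 1 rose, *Il7r*, by 0.97, at 30.4, 39.2 and 9.24 against 12.5, 19.2 and 8.27 CPM, a gene at 246, 257 and 282 CPM in CD8 T cells, and *Rora* was at 0.26 (adjusted p = 0.29).

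NK cells that had spent longer in the tumor had a lower share of their UMIs from the 5 genes, in the 1 KR+ library at hand. Over all NK cells *Cxcl10* was at 616 CPM in KG+ 1 (95% Poisson interval 605 to 627), 690.0 in KG+ 2 (680 to 700.5) and 360 in KR+ (355 to 366), and *Ifit1* at 108, 80.8 and 42.4. With 1 threshold for all libraries, 0.223% of UMIs, 11.6% of KG+ 1 NK cells (exact interval 10.4% to 12.9%), 11.98% of KG+ 2 (10.7% to 13.3%) and 6.62% of KR+ (5.71% to 7.63%) would have been members. Depth differed, so each cell was also thinned to 2000 UMIs, after which 13.9%, 14.2% and 8.51% of NK cells held at least 4 UMIs of the 5 genes. Intervals cover counting error only, and with 1 KR+ library no test between the colors was made.

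Within members the color also went with the level. A gene was called larger in 1 color only where KR+ differed from both KG+ libraries in the same direction and by more than those differed from each other; of 2731 genes at 50 CPM or more, 657 were higher and 1144 lower in KR+ members by that rule. Of 91 genes at 50 CPM or more from the signaling, sensor, effector, Schlafen and GTPase lists, 80 were lower in KR+ members and 4 higher. Their median log2 ratio was -0.79 to KG+ 1 and -0.71 to KG+ 2. The lowest KR+ member had a score of 0.127%, against 0.261% and 0.295% in KG+ 1 and KG+ 2. Genes that follow the score were therefore partly set lower in KR+ members by the choice of members. No count for these lists is given here with 1 threshold for the libraries. Reference cells had medians of -0.63 and -0.71 for the same 91 genes. The lowest ratios by the rule in KR+ members were those of *Cxcl9* (-5.29 and -7.26), *Ccl5* (-4.06 and -3.56), *Ccl3* (-3.52 and -3.38), *H2-Ab1* (-2.99 and -3.46) and *H2-Aa* (-2.88 and -3.14). *Cxcl9* was counted at 28, 127 and 1 UMIs in members, so that without a pseudocount its ratios had exact 95% intervals from -11.2 to -3.26 and from -13.1 to -5.34, and its ratios in reference cells were -2.06 and -5.01. *H2-Aa* rested on few cells, 10 of which held 98.7%, 85.5% and 100% of its UMIs in members. In reference cells the ratios were -0.85 and -2.16 for *H2-Ab1* and -1.71 and -2.74 for *H2-Aa*. *Ccl5* stood at 7107, 5022 and 425 CPM in members and 5937, 4214 and 334 in reference cells, so its color difference was as large outside the members. The highest ratios were those of *Gzme* (3.61 and 3.71), *Gzmd* (2.23 and 3.19), *Upp1*, a uridine phosphorylase (2.64 and 2.35), *Gzmc* (2.34 and 2.48) and *Spp1*, which encodes osteopontin (2.36 and 1.52), and all 5 were higher in reference cells of KR+ too. For *Ifng* the ratios of KR+ members to KG+ 1 and KG+ 2 were -2.16 and -2.93, and those of reference cells -1.21 and -1.19.

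The same rule was applied to CD8 T cells, with 220, 269 and 306 cells in the top 10% and 1098, 1342 and 1530 in reference cells, to ask which changes differed between the cell types. In a model of 12 sums, 206 of 10982 genes (1.88%) had a larger difference in NK cells and 323 (2.94%) a smaller one. Interferon-induced genes rose in both, and more in CD8 T cells for some. The score was made up differently in the cell types. *Cxcl10* stood at 3236, 1884 and 1789 CPM in the top 10% of CD8 T cells, against 4594, 5556 and 3202 in NK members. *Ifit1* stood at 2072, 1593 and 1235 against 704, 530 and 348 CPM. This comparison was not run without *Cxcl10* in the score. Of 41 antiviral effectors the difference was smaller in NK cells for 13 and larger for 1 (medians 2.02 and 2.56 in NK and CD8 T cells), and of 17 guanylate-binding proteins and GTPases it was smaller for 9 (2.49 and 2.94). *Irf7* was at 1.99 in NK cells and 2.83 in CD8 T cells, a difference of -0.84 ± 0.12 (edgeR adjusted p = 0.00049) that passed in 6 of 7 alternatives. *Isg15* was at 3.71 and 4.21, a difference of -0.50 that passed in 4 of 7 and was -0.24 (adjusted p = 0.30) within 10 strata of depth. The top 10% of CD8 T cells was shallower than reference cells, and ranking within 10 strata of depth left 55 genes with a larger and 77 with a smaller difference in NK cells.

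Secreted signals went the other way. Of 18 chemokine and cytokine genes, 9 had a larger difference in NK cells and 1 a smaller one, *Ccl5*, with medians of 0.67 and -0.16. *Ifng* rose by 2.36 in NK cells and was at 0.04 in CD8 T cells, whose top 10% held 298, 202 and 274 CPM against 282, 289.7 and 226 in reference cells. The difference of 2.32 ± 0.30 (adjusted p = 0.00026) passed in 6 of 7 alternatives, all but the fit without the library block. *Ccl4* (1.21, adjusted p = 0.0066), *Ccl3* (1.89, adjusted p = 0.025) and *Xcl1* (1.5, adjusted p = 0.011) also rose more in NK cells, but passed in 3, 3 and 2 of 7. *Irf8* differed by 1.32, rising in NK cells and at -1.10 in CD8 T cells, and *Prf1* by 1.10, with -0.39 against -1.48. For *Gzmb* the response was 0.73 and 0.88, and the difference of -0.15 did not pass (adjusted p = 0.76).

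**Figure D5:**
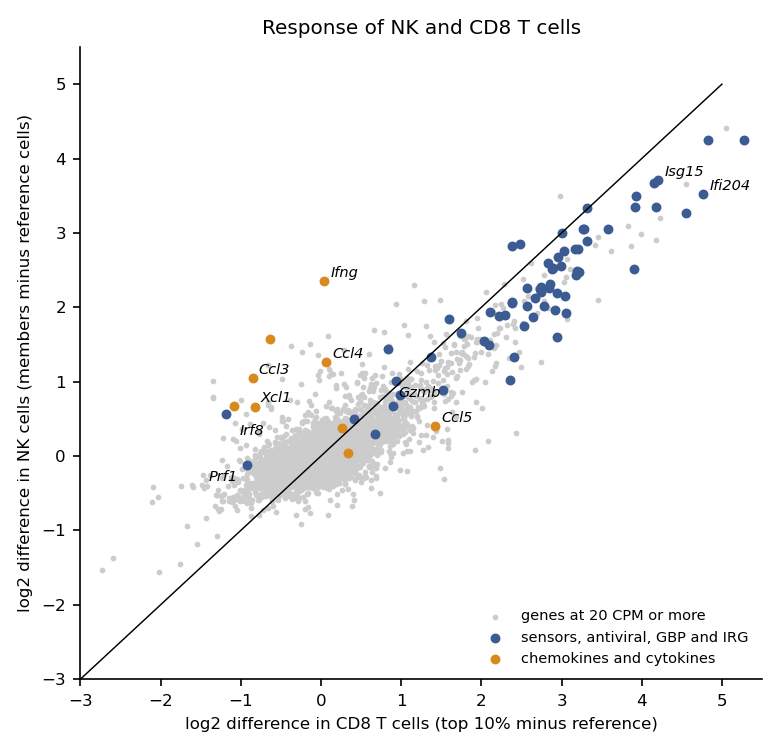
Log2 difference between the top 10% and reference cells in NK cells (y) and CD8 T cells (x) for genes at 20 CPM or more; the line marks equal differences. Most interferon-induced genes lie near or below the line, and *Ifng* lies above it at 2.36 in NK cells and 0.04 in CD8 T cells.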

How the data were processed

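Single-cell RNA sequencing of tumor-infiltrating lymphocytes was analyzed in 3 libraries, 2 KG+ and 1 KR+. The authors deposited raw UMI counts per gene and cell barcode (10x 3′ v3 chemistry, build mm10) as Cell Ranger filtered matrices, with Cell Ranger 6.1.2 in the submitters' processing notes and 6.0.1 in the matrix headers. The libraries held 87193225, 129438292 and 175848894 UMIs. The members and gene lists were chosen with earlier results of these data known. Cells were kept by 1000 to 6000 genes and mitochondrial UMIs under 7.5%. No doublet caller was run; a filter on other lineages' genes was an alternative. UMIs were summed per library and group. The 5 rule genes were removed before the fit. The 2 near-identical Ifit copies were fitted and left out of the lists and the named genes, but are among the 1028 genes higher in members. edgeR 4.0.16 (R 4.3.3) was used with TMM scaling, filterByExpr, quasi-likelihood tests and the library as a block, and Benjamini-Hochberg adjustment over all genes tested. The block is the library itself, since both groups come from the same library. CD8 T cells had at least 2 UMIs of *Cd8b1*, at least 1 of *Cd3e* and none of *Ncr1* or *Cd4*, with the same limit on *Mki67* and *Top2a*. Levels are CPM of all UMIs of a sum, computed from the deposited counts. DESeq2 1.42.0 was an alternative. With the block, the p-values measure how far the difference between groups varied among 3 libraries, not the spread of levels between them. Only the 2 KG+ libraries are labelled as biological replicates. The tests were run on simulated data first.

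Genes named were the 10 largest rises and falls among called genes with a mean of at least 20 CPM and the same sign in 3 libraries, in each list the 4 most abundant genes and the largest called rise and fall, the 5 largest differences each way between NK and CD8 T cells and between colors (at 50 CPM or more), and *Gzmb*. *Irf7*, *Irf9*, *Ifih1*, *Ddx58*, *Tap1*, *Psmb9*, *Cd274*, *Prf1*, *Il12rb2* and *Cd3d* of the lists, *Ifi207* and the markers *Klre1*, *Klrb1c*, *Fcgr3*, *Eomes*, *C1qa* and *Lyz2* were named outside that rule, after their values had been seen. Positions were taken from GENCODE M21 (GRCm38) and promoters from RefSeq (GRCm38.p6). For thinned shares, each cell was reduced at random to 2000 UMIs. Exact 95% binomial and Poisson intervals cover counting error only. Some items are not reported here.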

Additional observations from a re-analysis of the deposited data

Results flagged for a closer look

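Differences between the responses of NK and CD8 T cells were tested as an interaction, and the values given are the log2 difference in NK cells minus that in CD8 T cells. Among the genes described above it was 2.32 for *Ifng*, 1.21 for *Ccl4*, 1.89 for *Ccl3*, 1.5 for *Xcl1*, -1.02 for *Ccl5*, 1.32 for *Irf8*, 1.10 for *Prf1*, -0.84 for *Irf7* and -0.50 for *Isg15*. The 5 largest values were those of *Lrrk2* (8.57), *Zc3h12c* (4.01), *Cxcl9* (3.86), *Il1r2* (3.46) and *Batf3* (3.22), and the 5 lowest those of *P3h3* (-4.09), *Slfn3* (-3.04), *Bmp7* (-2.90), *Inka1* (-2.80) and *Gm27194* (-2.53). Most of these 10 genes were rare, with mean levels of 0.822 CPM for *Lrrk2*, 2.10 for *Zc3h12c*, 2.47 for *Batf3*, 1.39 for *P3h3* and 1.58 for *Bmp7* over the 12 sums. *Lrrk2* had no UMI in the top 10% of CD8 T cells of any library and 1, 6 and 0 in NK members, so its fitted value depends on the prior count and is no measure of size. The difference passed in 2 of 6 alternatives for *Lrrk2*, 3 of 6 for *Zc3h12c*, *Batf3* and *Gm27194*, 3 of 7 for *Cxcl9*, 2 of 5 for *P3h3* and 1 of 6 for *Bmp7*, against 6 of 7 for *Il1r2* and *Slfn3* and 5 of 6 for *Inka1*.

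In KR+ the sign was opposite to that of both KG+ libraries for *H2-Ab1*, at -0.37 (13.2 CPM in members and 17.3 in reference cells), and for *Fcer1g*, at -0.00708 (2469.6 CPM in members and 2481.9 in reference cells). These opposite signs were not tested.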

How the results depend on the processing

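Of the 136 genes named or listed in the comparison of members with reference cells, 1671 of 1882 values under the 14 alternatives kept the call, with 185 no longer passing, 22 newly passing and 4 reversed. Values without a call in either fit were counted as kept even where a small difference changed sign, as for *Tnfrsf9*, *Ifngr1* and *Il10rb*. *Isg15*, *Irf7*, *Slfn5*, *Iigp1*, *Usp18*, *Ifng*, *Ccl4*, *Xcl1*, *Gzmb*, *Gzma*, *Prf1*, *Cd69* and *Klrk1* passed in all 13 alternatives that kept the library block. Without the block, in a fit that ignores that both groups share a library, 248 genes were higher and 2 lower, the comparison with CD8 T cells gave 0 and 0 (262 and 365 at an unadjusted p below 0.05, and DESeq2 with the block 134 and 229), and *Ifng* and *Gzmb* were at adjusted p = 0.095 and 0.089. The count of genes lower in members depended on the processing: 139 with DESeq2, 1000 without the filter on low counts, 578 for the top 20%, 210 when ranked within 10 strata of depth, 979 without *Cxcl10* in the score, 234 without other lineages and the highest UMIs (added after seeing the data) and 183 under the stricter NK gate. Leaving out 1 library gave 771 to 1201 genes higher and 174 to 686 lower in members; without KG+ 1 it was 197 lower, without KG+ 2 174, and without KR+ 686. For NK against CD8 T cells leaving out 1 library gave 55 to 334 larger and 90 to 369 smaller differences, with 80 and 167 without KG+ 1, 55 and 90 without KG+ 2 and 334 and 369 without KR+. Other settings gave 429 larger without the filter and 55 larger and 77 smaller within 10 strata of depth. Leaving out 1 library also ended the calls of *Cma1* and *Tnfaip3* (KG+ 1), *Fasl* (KG+ 2) and *Bnip3* (KR+). The cause was not tested. Values counted as reversed changed sign with a call in the main fit or in the alternative. They were *Gzme* at 0.0875 under the stricter gate, *Tnfrsf9* at -0.33 (0.00 as reported) and *Ly6d* at 0.40 without *Cxcl10* in the score, and *H2-Ab1* at -0.11 without other lineages and the highest UMIs. *H2-Ab1* was itself counted by that filter, so its reversal was partly set by the choice of cells. The filter as first planned also counted *Cd3g*, *Trac*, *Trbc1*, *Trbc2*, *Cd28* and *Itgax*. It was not run, since NK cells hold *Trbc1* and it left as few as 3 members in a library. No paired analysis was possible between colors because there was 1 KR+ library; its calls by size gave 628 to 659 genes higher and 1131 to 1154 lower under both alternatives.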
